A study of Mus musculus with 9 samples.

Results

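The 40 mouse genes described here encode the voltage-gated calcium and sodium channels. They were chosen by symbol, as the rows named Cacna1, Cacna2d, Cacnb, Cacng or Scn with their member letter or number, and they make up 40 of the 57010 genes listed. Of these, 26 belong to calcium channels and 14 to sodium channels. RNA was sequenced from 9 libraries of mouse lung organoids, that is, cells cultured as small rounded bodies, with 3 libraries in each of 3 groups: small cell lung cancer (SCLC) organoids treated with GSK, SCLC organoids without that treatment, and organoids of normal lung (Normal). The labels name the treatment only as GSK, and its dose, its duration, the genotype of the tumour and the strain were not given in the sources used here. Nothing there says that the 3 libraries of a group came from separate animals or cultures, so p-values measure only the spread between these libraries, which may be technical. The files give each comparison of 3 libraries with 3 as a fold change with its standard error and hold no value for a single library.

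Voltage-gated calcium channels open when a cell depolarises and let in the calcium that triggers secretion, contraction and gene expression. A pore subunit (alpha1) sets the type of current, an alpha2delta subunit and a cytoplasmic beta subunit raise the number of channels at the membrane, and most gamma family members traffic glutamate receptors rather than calcium channels. Voltage-gated sodium channels, built of an alpha pore and beta subunits, carry the upstroke of the action potential. Small cell lung cancer is a neuroendocrine tumour whose cells can fire action potentials, and in patients antibodies against P/Q-type calcium channels of the tumour are a known cause of Lambert-Eaton myasthenic syndrome.

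Levels below are group means in normalized counts per library, implied by the mean and fold change of the authors' deposited tables, and the value after ± is the authors' standard error of a log2 fold change over 3 libraries in each group. A gene is called higher or lower where the authors' adjusted p is under 0.05. A group mean under 1 normalized count is below the counting floor used here (3 counts over the 3 libraries), and the fitted fold changes of such genes rest on few counts. In bulk RNA, fewer cells of a type and less RNA per cell cannot be told apart. Markers of the labelled cell types were checked first. All 8 neuroendocrine markers (Insm1, Chga and others) were higher in SCLC than in Normal in the authors' deposited table, and all 6 alveolar markers were lower, with a summed mean of 432 normalized counts in SCLC and 2741160 in Normal. GSK libraries kept neuroendocrine markers at a summed mean of 70848, against 156042 in SCLC, and Chga averaged 24139 in GSK and 23222 in SCLC. They also held markers that SCLC libraries almost lacked: 10 of 10 fibroblast, smooth muscle and pericyte markers were higher (summed mean 16133 in GSK, 69.6 in SCLC), as were 6 of 6 endothelial markers (16429 in GSK, 56.8 in SCLC) and 6 of 6 immune markers (18543 in GSK, 78.2 in SCLC). The 6 alveolar markers were also all higher, at a summed mean of 3441 in GSK and 466 in SCLC. In SCLC, 3 of the 6 endothelial and 4 of the 6 immune markers lay below the floor, among them Tie1 and Ptprc.

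SCLC organoids were set against Normal organoids to ask how the tumour cultures differ from normal lung. Most channel genes were higher in SCLC. Of 33 channel genes with an adjusted p, 23 were higher, 6 were lower and 4 did not pass in the authors' deposited table. Of all 24719 genes tested there, 50.4% were called, 25.3% higher and 25.1% lower, against 69.7% of channel genes higher and 18.2% lower. The median log2 fold change of the channel genes was 4.10, or 3.64 when each group mean under 1 was set to 1, and that of all genes tested was 0.10. The genes called higher ranged from 1.47 to 10.79 on the log2 scale and those called lower from -7.37 to -0.86. Another 4 genes (Cacng1, Cacng3, Cacng6 and Scn10a) had no adjusted p, and 3 (Cacna1s, Scn11a and Scn2b) had no counts in SCLC or Normal. The fold changes of 38 genes are drawn in the plot of log2 values by subunit class.

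**Figure D1:**
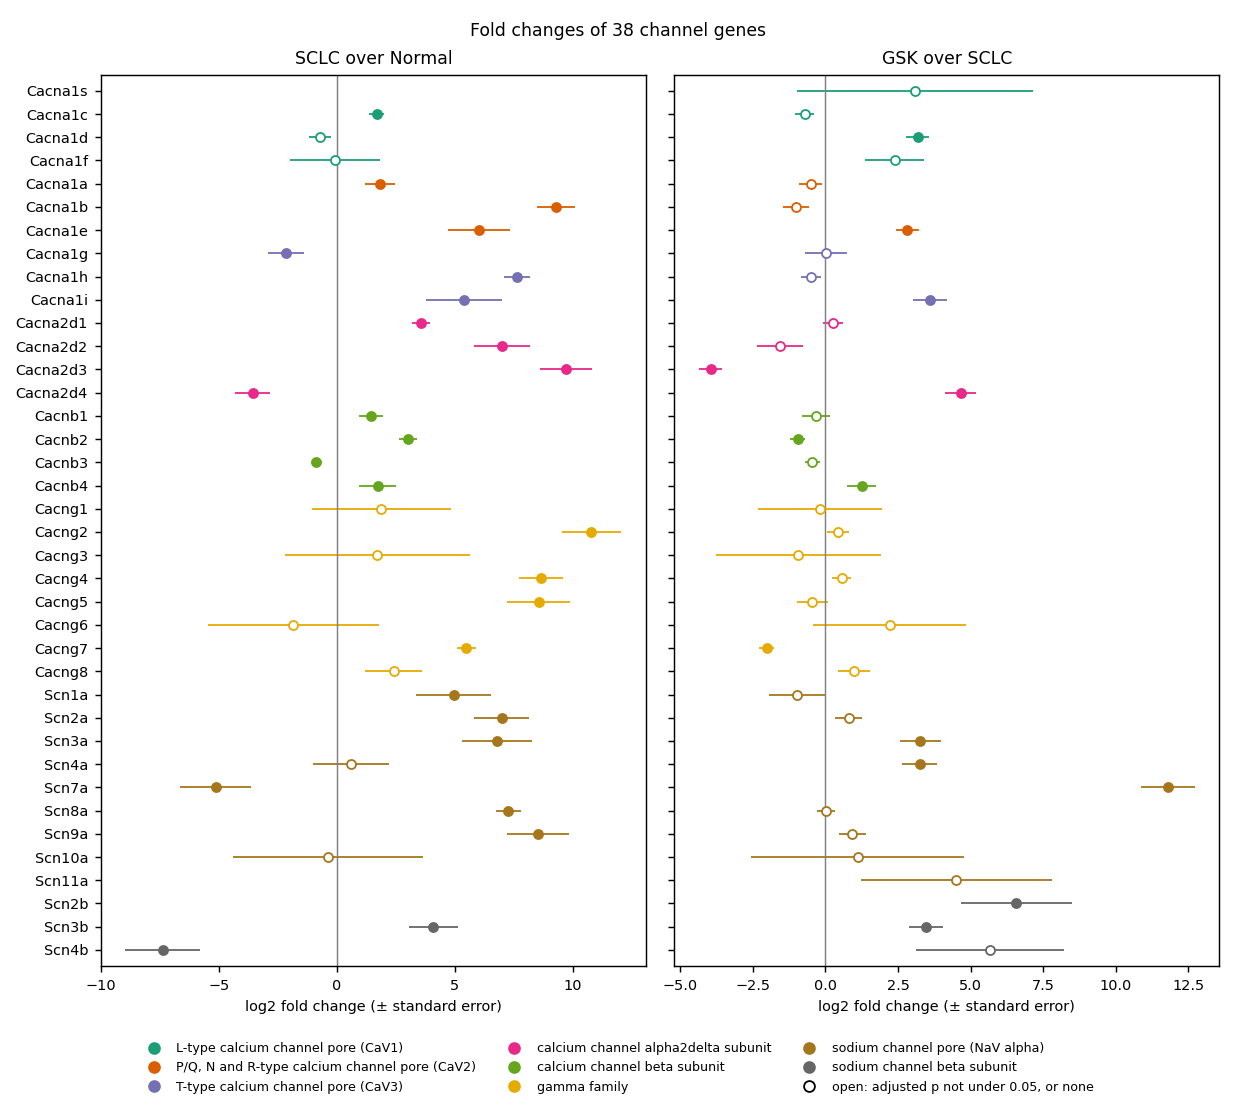
Log2 fold changes of 38 of the 40 channel genes (horizontal axis, ± the authors' standard error) for SCLC over Normal (left) and GSK over SCLC (right), with filled points for an adjusted p under 0.05. On the left 22 filled points lie above 0 and 5 below; on the right 10 lie above 0 and 3 below, with Scn7a farthest to the right at 11.79.

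Promoter sequence is shown for the 4 channel genes that were called in SCLC against Normal, have 1 start in the RefSeq promoter table (build GRCm38.p6) and hold the letters CAGCTG there. They include the 3 genes with the largest fold changes in SCLC (Cacng2, Cacna2d3 and Cacna1b) and the gene with the largest in GSK (Scn7a). CAGCTG is an E-box, a motif class bound by basic helix-loop-helix factors, and it reads the same on both strands. Each window runs from 250 bases before the gene's start to 50 bases after it, is printed on the gene's own strand (minus for all 4), and has the E-box in capitals.
Cacna1b, chr2:24763103-24763402: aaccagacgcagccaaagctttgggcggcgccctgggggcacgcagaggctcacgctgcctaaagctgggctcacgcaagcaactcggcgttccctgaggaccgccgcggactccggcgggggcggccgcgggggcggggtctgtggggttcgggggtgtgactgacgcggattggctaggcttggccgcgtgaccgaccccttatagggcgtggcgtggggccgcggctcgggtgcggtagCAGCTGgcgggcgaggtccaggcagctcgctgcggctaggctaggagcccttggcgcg
Cacna2d3, chr14:29721815-29722114: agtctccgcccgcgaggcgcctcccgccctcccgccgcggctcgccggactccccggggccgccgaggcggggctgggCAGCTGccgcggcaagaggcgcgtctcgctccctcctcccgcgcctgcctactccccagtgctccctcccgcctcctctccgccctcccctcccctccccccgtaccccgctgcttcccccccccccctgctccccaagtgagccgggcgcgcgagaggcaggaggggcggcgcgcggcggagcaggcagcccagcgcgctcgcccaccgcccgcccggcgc
Cacng2, chr15:78119231-78119530: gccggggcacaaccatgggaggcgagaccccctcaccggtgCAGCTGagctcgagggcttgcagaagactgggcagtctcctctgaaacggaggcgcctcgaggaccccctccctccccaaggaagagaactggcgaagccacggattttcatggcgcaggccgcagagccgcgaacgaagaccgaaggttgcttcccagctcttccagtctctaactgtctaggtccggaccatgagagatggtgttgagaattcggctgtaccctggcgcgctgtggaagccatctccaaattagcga
Scn7a, chr2:66784861-66785160: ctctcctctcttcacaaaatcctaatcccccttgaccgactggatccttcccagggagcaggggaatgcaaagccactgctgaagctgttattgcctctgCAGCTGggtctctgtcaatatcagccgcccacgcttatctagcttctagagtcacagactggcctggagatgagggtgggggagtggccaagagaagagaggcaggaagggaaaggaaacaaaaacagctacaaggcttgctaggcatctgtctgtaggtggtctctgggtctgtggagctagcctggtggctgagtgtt
The E-box began 8 bases before the start in Cacna1b, 172 before it in Cacna2d3, 209 before it in Cacng2 and 150 before it in Scn7a. The windows differ in CpG content: observed over expected CpG was 0.922 for Cacna1b, 0.883 for Cacna2d3 and 0.717 for Cacng2, but 0.139 for Scn7a. The median over all 32851 windows of the table was 0.384. Of the 40 genes, 30 matched the table, with 41 windows, and 13 windows (31.7%) held the E-box, against 16.3% of all windows. Among windows of channel genes higher in SCLC the share was 26.9%, and among those of channel genes lower in SCLC it was 25% (1 of 4 windows). It was largest, at 45.5% (5 of 11 windows), for channel genes that were not called. The letters TTCAGCACC, the left part of the RE1 element bound by the repressor REST, were searched on both strands, do not overlap the E-box and were in none of the 41 windows and in 0.371% of all windows. Such matches describe letters only.

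Among calcium channel pores, 6 of 9 tested were higher in SCLC and 1 was lower, and the largest differences were those of Cacna1b and Cacna1h. Cacna1b, the pore of N-type channels that gate transmitter release, averaged 2346 normalized counts in SCLC and 3.70 in Normal. Its log2 fold change was 9.31 ± 0.81 in the authors' deposited table (adjusted p = 4.15e-29), and its promoter is the first of those printed above. Cacna1h, a T-type pore that opens near the resting potential, averaged 5277 in SCLC and 26.3 in Normal, a change of 7.65 ± 0.54 (adjusted p = 4.67e-43) by the authors' deposited table. Per kilobase of transcript it was the highest channel pore in SCLC. Cacna1a, the P/Q-type pore, averaged 1362 in SCLC and 383 in Normal. That difference was 1.83 ± 0.64 (adjusted p = 0.0101) by the authors' deposited table. The R-type pore Cacna1e averaged 51.7 in SCLC and 0.80 in Normal, and the T-type pore Cacna1i 16.9 in SCLC and 0.40 in Normal. Both were called higher in the authors' deposited table, with 95% intervals of 3.45 to 8.59 for Cacna1e and 2.26 to 8.54 for Cacna1i on the log2 scale. The third T-type pore, Cacna1g, went the other way, with 38.7 in SCLC and 170 in Normal (-2.14 ± 0.76, adjusted p = 0.0117, by the authors' deposited table). Thus N-, R- and P/Q-type genes were all higher in SCLC, while T-type genes were split.

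Of 3 L-type pores tested, 1 was higher in SCLC. Cacna1c, the L-type pore of heart, smooth muscle and brain, averaged 3936 in SCLC and 1220 in Normal (1.69 ± 0.33, adjusted p = 1.09e-06, by the authors' deposited table). It was the highest calcium channel pore per kilobase in Normal. Cacna1d, an L-type pore of pacemaking and endocrine cells, averaged 68.5 in SCLC and 112 in Normal and did not pass (adjusted p = 0.209 by the authors' deposited table). Cacna1f, the L-type pore of photoreceptors, averaged 2.7 in SCLC and 2.86 in Normal and did not pass either.

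Of the 4 alpha2delta genes, 3 were higher in SCLC and 1 was lower. Cacna2d3, an alpha2delta subunit of neurons, averaged 1241 in SCLC and 1.49 in Normal (9.70 ± 1.09, adjusted p = 1.02e-17, by the authors' deposited table). Cacna2d1 and Cacna2d2 encode the subunits that bind gabapentin. Cacna2d1 averaged 1978 in SCLC and 168 in Normal (3.56 ± 0.38), and Cacna2d2 287 in SCLC and 2.24 in Normal (7.0 ± 1.21), in the authors' deposited table. Cacna2d4, the subunit of photoreceptor synapses, was lower, at 3.04 in SCLC and 36.1 in Normal (-3.57 ± 0.74, adjusted p = 5.39e-06, by the authors' deposited table).

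Of the 4 beta subunit genes, 3 were higher in SCLC and 1 was lower. Cacnb2, best known from heart, averaged 509 in SCLC and 62.3 in Normal (3.03 ± 0.38) in the authors' deposited table. Cacnb1, best known from skeletal muscle, averaged 435 in SCLC and 157 in Normal (1.47 ± 0.51, adjusted p = 0.00919, by the authors' deposited table). Cacnb3 was lower, at 1355 in SCLC and 2466 in Normal (-0.86 ± 0.24, adjusted p = 0.00104), by the authors' deposited table. Per kilobase it was the highest beta subunit gene of both groups. Cacnb4, whose loss causes the ataxia of lethargic mice, averaged 34.4 in SCLC and 10.4 in Normal with an adjusted p of 0.0486 by the authors' deposited table. That call was lost without the authors' filter on low means (adjusted p = 0.0659) and with the fold changes centred on the median gene (adjusted p = 0.0811).

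In the gamma family, 4 of the 5 tested genes were higher in SCLC and none was lower, also at an unadjusted p under 0.05, by the authors' deposited table. Cacng7 averaged 5327 in SCLC and 119 in Normal (5.49 ± 0.41, adjusted p = 1.05e-38, by the authors' deposited table) and had the highest level per kilobase of all 40 genes in SCLC. Cacng2, or stargazin, which carries AMPA-type glutamate receptors to synapses, averaged 727 in SCLC and 0.41 in Normal, with a 95% interval of 8.31 to 13.27 on the log2 scale from the authors' deposited table. Cacng4 averaged 904 in SCLC and 2.23 in Normal (8.67 ± 0.92), and Cacng5 155 in SCLC and 0.41 in Normal (8.56 ± 1.33), in the authors' deposited table. These 4 genes are among the members that bind AMPA receptors. Cacng8, also an AMPA receptor partner, averaged 19.4 in SCLC and 3.63 in Normal and did not pass (adjusted p = 0.0820 by the authors' deposited table).

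**Figure D2:**
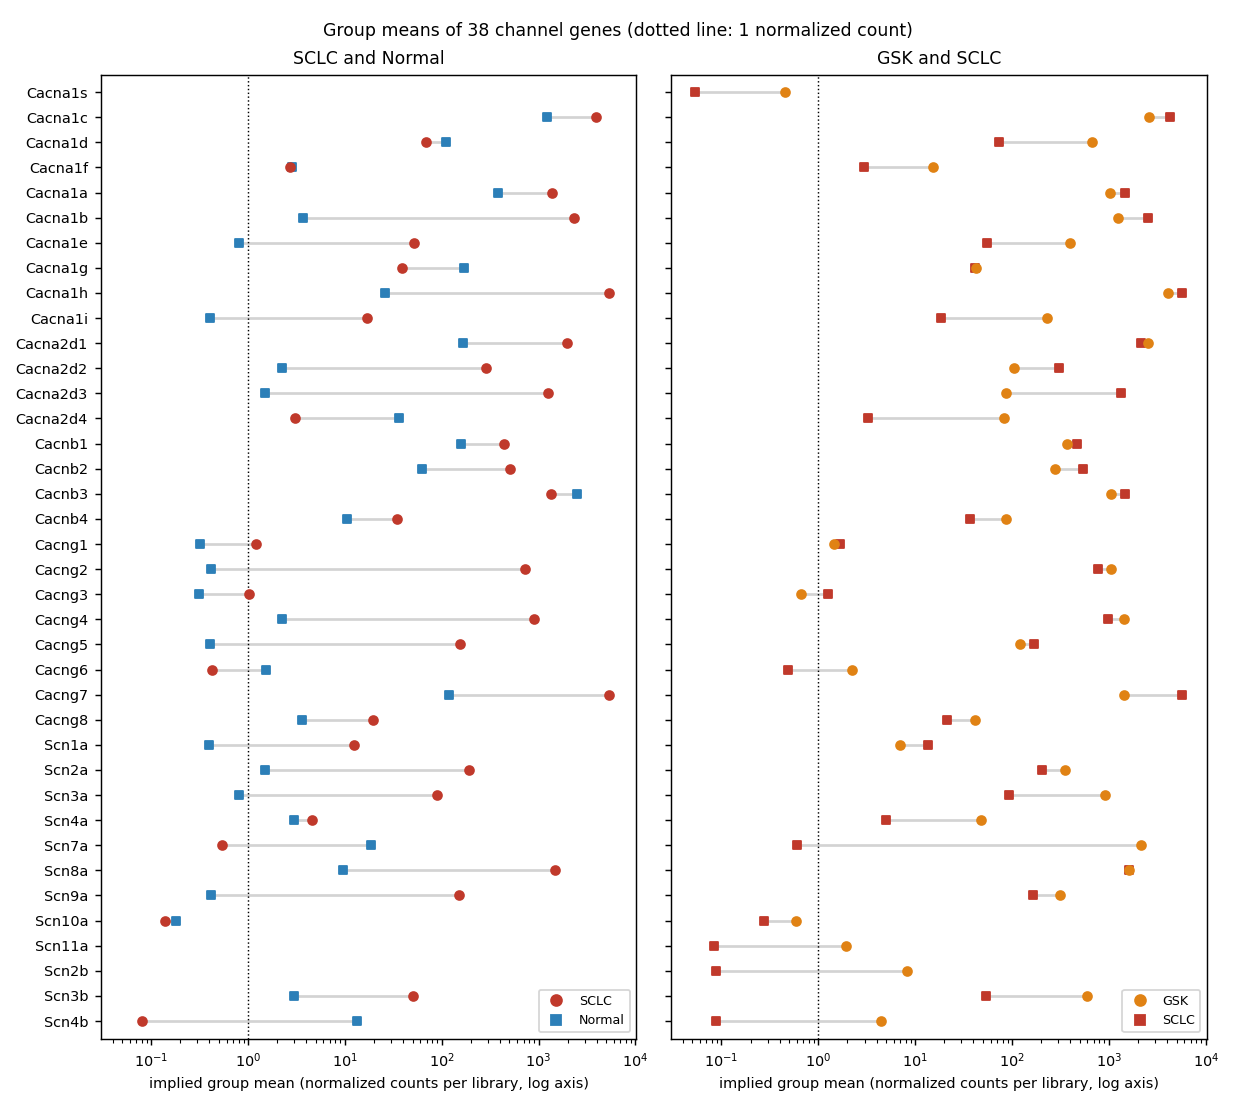
Implied group means of 38 genes in normalized counts per library (log axis) for SCLC and Normal (left) and GSK and SCLC (right), with a grey line joining the groups of a gene and a dotted line at 1 normalized count. Scn8a averaged 1487 in SCLC and 9.64 in Normal; Scn7a averaged 2145 in GSK and 0.61 in SCLC. A gene with no counts in a table has no point there.

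Sodium channel pores were low in Normal, with means of 18.8 or less, and 6 of 8 tested were higher in SCLC and 1 lower. Scn8a, a main pore of axon initial segments in the brain, averaged 1487 in SCLC and 9.64 in Normal (7.27 ± 0.52, adjusted p = 7.39e-43, by the authors' deposited table). Scn2a and Scn3a are brain pores, and Scn9a is a pore of sensory neurons and neuroendocrine cells. Scn2a averaged 190 in SCLC and 1.49 in Normal, Scn3a 88.5 in SCLC and 0.80 in Normal, and Scn9a 153 in SCLC and 0.41 in Normal. All 3 were called higher in the authors' deposited table, with log2 fold changes of 6.99 ± 1.16 for Scn2a, 6.79 ± 1.5 for Scn3a and 8.54 ± 1.32 for Scn9a. Scn1a, another brain pore, averaged 12.4 in SCLC and 0.40 in Normal (adjusted p = 0.00460 by the authors' deposited table). Scn4a, the skeletal muscle pore, averaged 4.55 in SCLC and 3.0 in Normal and did not pass. Beside it, 3 of 8 tested markers of skeletal and cardiac muscle were higher and 2 lower. All 10 listed had a summed mean of 615 in SCLC and 7802 in Normal. Most of the Normal sum came from Myh7 alone (mean 3762 over both groups, log2 fold change -8.07 in the authors' deposited table), so the sums do not describe the list as a whole. Scn7a, which encodes a sodium-sensing channel that does not open with voltage, was lower, at 0.53 in SCLC and 18.8 in Normal, with a 95% interval of -8.10 to -2.17 on the log2 scale from the authors' deposited table.

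Of the 3 sodium channel beta subunits tested, 2 were lower in SCLC and 1 was higher. Scn4b was at least 13.3-fold lower in SCLC, with means of 0.08 in SCLC and 13.3 in Normal (adjusted p = 1.33e-05 by the authors' deposited table). Scn3b was the beta subunit gene that was higher, at 50.8 in SCLC and 2.97 in Normal (4.10 ± 1.03, adjusted p = 0.000211, by the authors' deposited table). Markers of fibroblasts, smooth muscle and pericytes were lower in SCLC in 8 of 10 cases (summed mean 64.7 in SCLC, 9660 in Normal), as were 4 of 6 endothelial markers and 4 of 5 immune markers (72.7 in SCLC, 1403 in Normal). Of 8 neuron and glia markers tested, 3 were higher and 2 lower. Their part in the lower channel genes, and that of the alveolar markers, was not tested.

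GSK-treated SCLC organoids were then set against untreated ones, to ask which genes differed with the treatment. Fibroblast, endothelial, immune and alveolar markers, given above, differed between these groups too. A change within cells and a change in cell content therefore cannot be told apart for any gene of this comparison. A minority of channel genes differed, and Scn7a rose while Cacna2d3 and Cacng7 fell. Of 37 channel genes with an adjusted p, 11 were higher, 4 were lower and 22 did not pass in the authors' deposited table. Of all 28376 genes tested there, 37.1% were called, 21.6% higher and 15.5% lower, against 29.7% of channel genes higher and 10.8% lower. The called share of channel genes was thus close to that of all genes. Their median log2 fold change was 0.56, and that of all genes tested 0.24. Summed normalized counts were lower in GSK (31.9 M per library, M for mega) than in SCLC (45.3 M), and the median fold change of those genes whose mean reached 100 was -0.25 on the log2 scale. With totals set equal, 18 channel genes were higher and 3 lower, so that 85.7% of the calls were higher, against 73.3% as deposited. Over all genes tested those shares were 81.6% with equal totals and 58.2% as deposited.

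Scn7a had the largest change of the channel genes under GSK. It averaged 2145 normalized counts in GSK and 0.61 in SCLC, a log2 fold change of 11.79 ± 0.93 (95% interval 9.97 to 13.61, adjusted p = 1.77e-34) by the authors' deposited table. Its promoter, the last of those printed above, is the CpG-poor one. By fold it stood 239th of the 6129 genes called higher in that table. Scn7a is known from glia, sensory neurons and several peripheral tissues. Of the glial markers, Sox10 averaged 1.09 in GSK and 1.03 in SCLC and did not pass. Over the whole list of neuron and glia markers, 3 of 9 tested were higher and 2 lower. S100b, among those higher, averaged 19.6 in GSK and 2.81 in SCLC (adjusted p = 0.0402 by the authors' deposited table). Fibroblast, endothelial, immune and alveolar markers, given above, rose in GSK as whole lists, and their part in the rise of Scn7a was not tested.

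Other sodium channel genes also rose under GSK. Scn3a averaged 907 in GSK and 93.9 in SCLC (3.27 ± 0.70, adjusted p = 2.03e-05, by the authors' deposited table). Scn3b, a beta subunit gene, averaged 601 in GSK and 54.5 in SCLC (3.46 ± 0.60, adjusted p = 7.21e-08, by the authors' deposited table). The skeletal muscle pore Scn4a averaged 47.5 in GSK and 4.99 in SCLC (3.25 ± 0.60), in the authors' deposited table. Beside it, 2 of 9 tested muscle markers, Myh6 and Tnnt3, were higher and 7 did not pass. Scn2b, a beta subunit of brain sodium channels, was at least 8.25-fold higher, with means of 8.25 in GSK and 0.09 in SCLC (adjusted p = 0.00262 by the authors' deposited table). Scn8a averaged 1620 in GSK and 1597 in SCLC, and the 95% interval of its log2 fold change was -0.57 to 0.61 in the authors' deposited table and -0.06 to 1.11 with totals set equal. Scn2a (353 in GSK, 203 in SCLC) and Scn9a (312 in GSK, 164 in SCLC) did not pass, and both passed with totals set equal (adjusted p = 0.0171 for Scn2a and 0.00567 for Scn9a), as did Scn4b (adjusted p = 0.0433).

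Of 9 calcium channel pores tested, 3 rose under GSK and none fell by the authors' deposited table, although Cacna1c and Cacna1b had an unadjusted p under 0.05 on the lower side. Cacna1d averaged 667 in GSK and 73.9 in SCLC (3.17 ± 0.39, adjusted p = 1.08e-14, by the authors' deposited table). The R-type pore Cacna1e averaged 393 in GSK and 55.6 in SCLC (2.82 ± 0.40, adjusted p = 5.43e-11), and the T-type pore Cacna1i 228 in GSK and 18.7 in SCLC (3.61 ± 0.58, adjusted p = 6.36e-09), by the authors' deposited table. The 4 calcium channel pores with the highest levels per kilobase in SCLC did not pass. Cacna1h averaged 4048 in GSK and 5674 in SCLC, Cacna1c 2590 in GSK and 4246 in SCLC, Cacna1b 1244 in GSK and 2507 in SCLC, and Cacna1a 1019 in GSK and 1456 in SCLC. Their log2 fold changes lay between -1.01 and -0.49, with adjusted p of 0.0567 for Cacna1b and 0.0755 for Cacna1c by the authors' deposited table. Cacna1b passed among genes with a mean of at least 10 (adjusted p = 0.0442), but with totals set equal its log2 fold change was -0.51 (adjusted p = 0.385) and centred on the median gene -0.77 (adjusted p = 0.169). With totals set equal, the changes of the other 3 lay between -0.21 (Cacna1c) and 0.02 (Cacna1h). Cacna1f (15.4 in GSK, 2.96 in SCLC, adjusted p = 0.0520) and Cacna1g (42.2 in GSK, 41.5 in SCLC) did not pass in the authors' deposited table. Cacna1f passed as higher with totals set equal (adjusted p = 0.0151) and centred on the median gene (adjusted p = 0.0302).

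The accessory calcium channel genes held the largest falls. Cacna2d3 averaged 86.1 in GSK and 1336 in SCLC (-3.96 ± 0.40, adjusted p = 8.12e-21, by the authors' deposited table). By its statistic it stood 22nd of the 4404 genes called lower in that table. Cacna2d4 rose, with 82.2 in GSK and 3.27 in SCLC (4.65 ± 0.55, adjusted p = 8.66e-16, by the authors' deposited table). Cacna2d1 averaged 2533 in GSK and 2134 in SCLC and did not pass. Thus the alpha2delta genes changed in opposite directions. Cacng7 fell to 1417 in GSK, against 5738 in SCLC (-2.02 ± 0.26, adjusted p = 8.18e-14, by the authors' deposited table). No other gamma gene passed: Cacng4 averaged 1428 in GSK and 970 in SCLC, and Cacng2 1040 in GSK and 779 in SCLC. With totals set equal both passed as higher (adjusted p = 0.00610 for Cacng4 and 0.0418 for Cacng2), as did Cacng8 (adjusted p = 0.0189). Cacnb2 averaged 281 in GSK and 547 in SCLC (-0.96 ± 0.27, adjusted p = 0.00180, by the authors' deposited table), a call lost with totals set equal (adjusted p = 0.181). Cacnb4 averaged 87.1 in GSK and 36.8 in SCLC (adjusted p = 0.0406 by the authors' deposited table), a call lost without the filter on low means (adjusted p = 0.0512). Neuroendocrine markers moved beside these falls, with 4 of 8 lower and 1 higher: Insm1 averaged 17354 in GSK and 66876 in SCLC. Their part in the lower channel genes was not tested.

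The remaining genes that did not pass under GSK were Cacna2d2, Cacnb1, Cacnb3, Cacng1, Cacng5, Cacng6, Cacng8, Scn1a, Scn11a and Scn4b, and Cacna1s, Cacng3 and Scn10a had no adjusted p. Over all 22 that did not pass, log2 fold changes ran from -1.56 to 5.67 in the authors' deposited table, 10 of them negative and 12 positive. The calls were also split by the level in SCLC. Of the 18 tested channel genes with an SCLC mean of at least 100, none was higher and 4 were lower; of the 19 with a smaller mean, 11 were higher and none was lower. At an unadjusted p under 0.05, 1 gene (Scn9a) was higher in the first set and none was lower in the second, by the authors' deposited table. The split of the first set depends on the scaling: with totals set equal 4 were higher and 3 lower, and centred on the median gene 2 were higher and 4 lower. In the second set 14 and 12 were then higher and none was lower. All genes tested showed a like split as deposited: 10.7% higher and 33.3% lower at an SCLC mean of at least 100, 29.8% higher and 2.16% lower below it. For the other scalings all genes were counted without that split. With totals set equal 30.8% were higher and 6.94% lower, and centred on the median gene 25.5% were higher and 10.8% lower. The level of 100 was chosen after the values were seen, and the SCLC libraries that set the level also enter the comparison.

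Per kilobase of transcript, which allows levels of different genes to be compared, the leading channels of SCLC and Normal were partly shared. In SCLC the highest levels per kilobase were those of Cacng7 (2408), Cacna1h (641), Cacnb3 (496), Cacna2d3 (336) and Cacna1c (299). Among the highest in Normal were Cacnb3 (902), Cacna1c (92.7), Cacng7 (53.6) and Cacna1a (48.4). The 10 calcium channel pores summed to 1371 normalized counts per kilobase in SCLC and 178 in Normal. Cacna1h made up 46.8% of that sum in SCLC and 1.79% in Normal, where Cacna1c held 52.0%. Of the sodium channel pores, Scn8a stood at 130 per kilobase in SCLC and 0.84 in Normal, and Scn7a at 0.07 in SCLC and 2.56 in Normal. The lengths are those of the longest coding transcript in GENCODE M21, so a gene read mainly from another transcript is set too high or too low.

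Under GSK, Scn7a was the sodium channel pore with the highest level per kilobase, at 292 in GSK and 0.08 in SCLC in the second table. Scn8a stood at 142 per kilobase in GSK and 140 in SCLC, and Scn3a at 94.8 in GSK and 9.82 in SCLC. The calcium pores summed to 1079 per kilobase in GSK and 1473 in SCLC, or 1532 in GSK with totals set equal, so the direction of that sum depends on the scaling. Cacna1h made up 45.6% of it in GSK and 46.8% in SCLC. Among alpha2delta genes the main member differed: Cacna2d1 held 86.0% of the family's level in GSK and 40.9% in SCLC, and Cacna2d3 held 5.89% in GSK and 51.5% in SCLC. Shares within a family do not depend on the scaling of a table. No error is given for these sums, since the files hold no value per library.

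**Figure D3:**
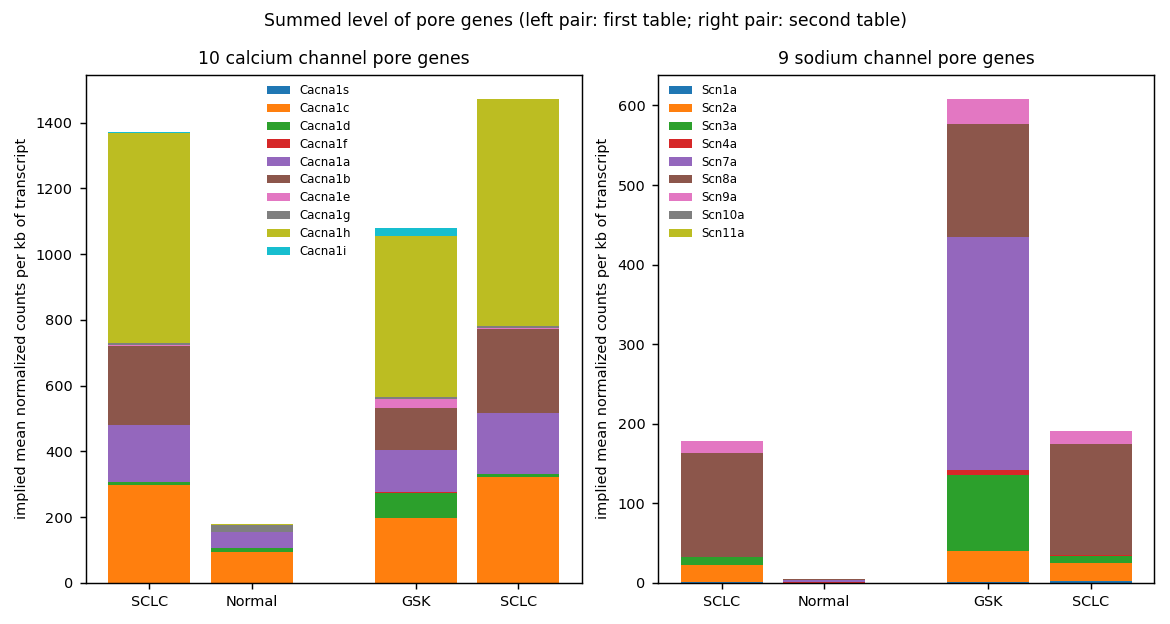
Summed level of the 10 calcium channel pore genes (left) and 9 sodium channel pore genes (right) in normalized counts per kilobase of transcript, stacked by gene, with SCLC and Normal from the first table and GSK and SCLC from the second. The right panel lacks 1 sodium channel pore, so the height of its bars is not the total of the family; the largest block there is Scn7a in GSK, at 292.

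Several channel genes lie side by side in the genome, and neighbours moved alike in some runs and apart in others. On mouse chromosome 2, in the order of the RefSeq gene table, Scn3a and Scn2a are followed by 3 coding genes of other families (Csrnp3, Galnt3 and Ttc21b) and then by Scn1a, Scn9a and Scn7a. In SCLC against Normal, the first 4 of these 5 sodium channel genes in that order were higher and Scn7a, at the end of the row, was lower. Of the other families' genes in the row, Csrnp3, a transcription regulator gene next to Scn2a, was higher too (29.2 in SCLC, 0.40 in Normal), Galnt3, a glycosyltransferase gene, was lower (157 in SCLC, 1132 in Normal), and Ttc21b, a gene of cilia, did not pass in the authors' deposited table. Under GSK, Scn7a and Scn3a, at the ends of the row, were called higher in the authors' deposited table, and the sodium channel genes between them did not pass. Next to Scn7a, Scn9a had a log2 fold change of 0.93 ± 0.45 under GSK in the authors' deposited table. On another chromosome the adjacent Cacng4 and Cacng5 were both higher in SCLC, with log2 fold changes of 8.67 and 8.56 in the authors' deposited table. Cacng1, next to Cacng4 in that run, averaged 1.20 in SCLC and 0.32 in Normal and had no adjusted p. The run of Cacng7, Cacng8 and Cacng6 was uneven, with 5327, 19.4 and 0.43 normalized counts in SCLC.

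**Figure D4:**
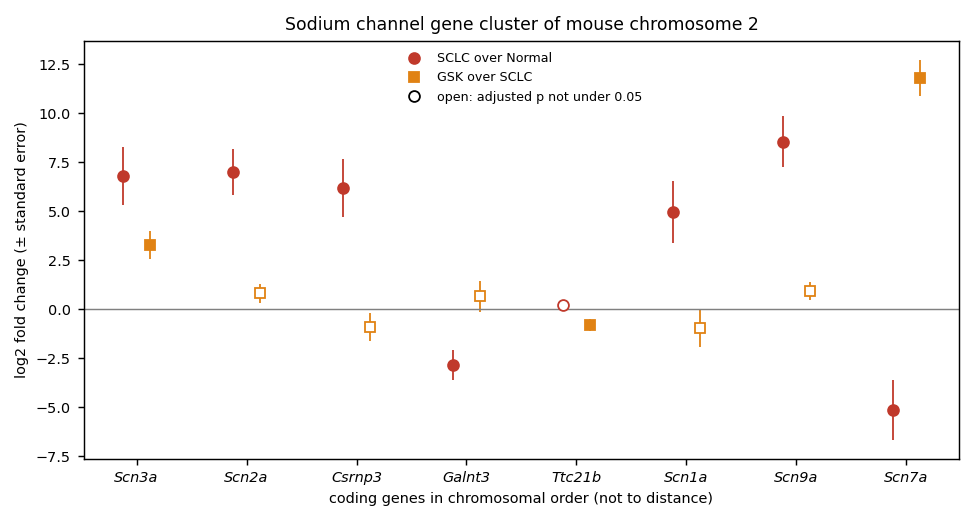
Log2 fold changes (± the authors' standard error) of 8 coding genes of the sodium channel cluster on chromosome 2, in chromosomal order and not to distance, for SCLC over Normal (circles) and GSK over SCLC (squares), with open symbols where the adjusted p was not under 0.05. Scn7a, at the right end, stands at -5.14 for SCLC over Normal and 11.79 for GSK over SCLC.

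Partners of the channels were followed in lists of 71 other genes. In SCLC against Normal, 32 of 70 tested were higher (45.7%) and 21 lower (30%) in the authors' deposited table. The shares over all genes tested were 25.3% higher and 25.1% lower. Of 28 proteins that bind or anchor the channels, 16 were higher (57.1%) and 5 lower (17.9%). All 5 active zone tethers, which hold calcium channels at release sites, were higher: Bsn averaged 7436 in SCLC and 6.76 in Normal, and Rimbp2 1355 in SCLC and 0.41 in Normal. Of the 4 anchors of the axon initial segment, 3 were higher, with Nfasc at 6133 in SCLC and 5.21 in Normal, and Ank3 was lower at 995 in SCLC and 8773 in Normal. The FGF homologous factors, which bind sodium channel tails, were higher in 3 of 4 cases, with Fgf14 at 1226 in SCLC and 2.24 in Normal. The RGK GTPases inhibit calcium channels, and 3 of the 4 (Rrad, Gem and Rem1) were lower while Rem2 was higher. All 5 genes of the NALCN complex, a sodium leak channel that sets resting excitability, were higher, with Nalcn at 1414 in SCLC and 0.41 in Normal. Of 4 calcium sensors, Calm3 and Cabp1 were higher, of 3 STAC adaptors Stac2, and of 4 other binders Nedd4 was higher and Nedd4l lower.

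Lists for the rest of the cell's calcium and sodium handling moved both ways in SCLC. Of 11 genes of calcium store release and entry, 3 were higher and 6 lower; the store-operated channel gene Orai1 averaged 319 in SCLC and 3228 in Normal, and the ryanodine receptor gene Ryr2 458 in SCLC and 3.73 in Normal. Of 10 calcium pumps and exchangers, 4 were higher and 2 lower, with the exchanger gene Slc8a2 at 1263 in SCLC and 5.23 in Normal. Of 6 sodium potassium pump genes, 2 were higher and 4 lower. The epithelial pump subunit Atp1b1 averaged 3661 in SCLC and 53918 in Normal. Of 6 other voltage-gated cation channels tested, 3 were lower and 3 did not pass. Rest, the repressor of neuronal genes that include sodium channels, averaged 118 in SCLC and 2720 in Normal (-4.52 ± 0.77, adjusted p = 2.26e-08, by the authors' deposited table), while its cofactors Rcor1 and Rcor2 were higher.

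Under GSK, 15 of 69 tested genes of these lists were higher (21.7%) and 18 lower (26.1%) in the authors' deposited table. The shares over all genes tested were 21.6% higher and 15.5% lower, so the higher share of the lists was close to that of all genes. Of the 28 binding and anchoring proteins, 5 were higher (17.9%) and 11 lower (39.3%). The initial segment spectrin Sptbn4 averaged 68.1 in GSK and 1921 in SCLC, the active zone protein Bsn 2751 in GSK and 7935 in SCLC, and Fgf13 357 in GSK and 1597 in SCLC. The RGK GTPases changed in directions opposite to those in SCLC against Normal: Rrad, Gem and Rem1 were higher and Rem2 was lower. Gem averaged 1117 in GSK and 43.7 in SCLC, and Rem2 165 in GSK and 630 in SCLC. In the NALCN complex, Nalcn (571 in GSK, 1518 in SCLC) and Nalf2 (503 in GSK, 1978 in SCLC) were lower and the other 3 did not pass. Rest averaged 764 in GSK and 126 in SCLC (2.6 ± 0.85, adjusted p = 0.00795, by the authors' deposited table). Store release and entry had 2 higher of 11 and 9 that did not pass, calcium pumps and exchangers 4 higher and 2 lower of 10, and the sodium potassium pump 1 higher and 3 lower of 6. Among other voltage-gated channels, the proton channel gene Hvcn1, known from immune cells, averaged 556 in GSK and 4.62 in SCLC and stood with Tpcn1 as the 2 higher of 5 tested. Immune markers rose beside it, and their part was not tested.

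**Figure D5:**
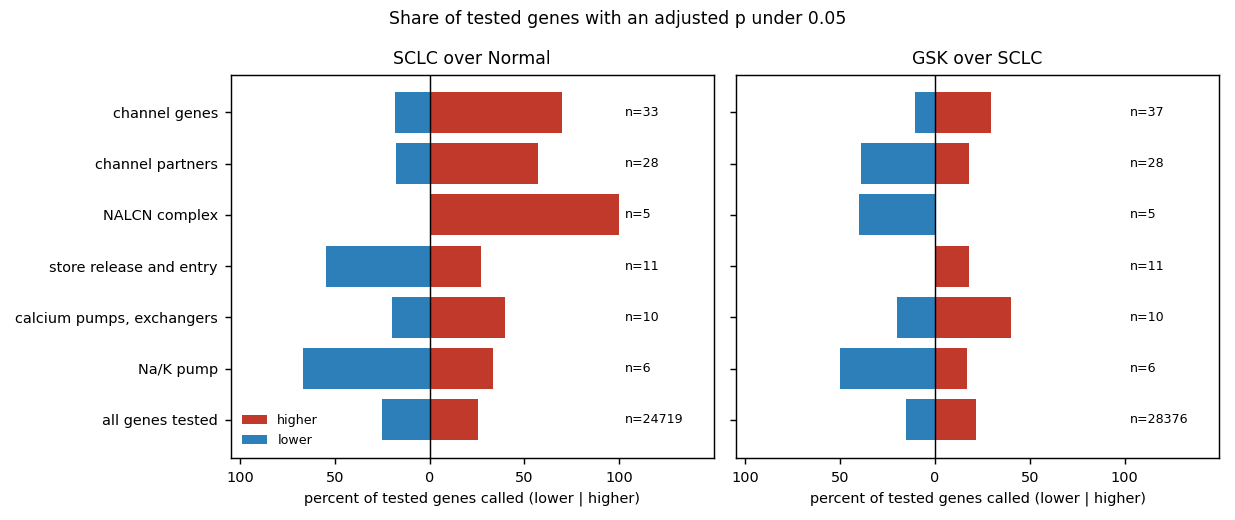
Percent of tested genes called higher (right of 0) or lower (left of 0) in the channel genes, their partner lists and all genes tested, for SCLC over Normal (left) and GSK over SCLC (right), with n as the number tested. In SCLC over Normal 69.7% of channel genes and 25.3% of all genes are higher; in GSK over SCLC the shares are 29.7% and 21.6%.

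Some values could include reads of another gene. By the RefSeq gene table, 6 channel genes overlap another coding gene (Cacna1c, Cacna1d, Cacna1h, Cacna2d3, Cacna2d4 and Cacnb1), and whether the authors counted by strand is not given in the sources used here. Cacnb1 overlaps the ribosomal protein gene Rpl19. How far reads of such neighbours enter these values was not tested.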

How the data were processed

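Per the labels, libraries came from a stranded mRNA kit and were sequenced as paired reads of 150 bp. Reads were aligned with STAR 2.7.9a to GRCm39, per the submitters' processing notes. The counting tool, the annotation release and the comparison tool were not given in the sources used here. Per the file headers, the columns carry the names that DESeq2 writes. The 2 deposited tables cover 57010 genes each. The authors gave a signal (the mean of normalized counts over 6 libraries), a log2 fold change with its standard error, a score (the test statistic) and a p-value with its adjusted p-value. The statistic equalled fold change over standard error to within 8.87e-08.

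Group means were computed from each gene's mean and fold change, with 3 libraries a group. The control of the second table was taken as SCLC: over 13634 genes with means of at least 50, its implied mean over that of SCLC in the first table was 0.11 at the median on the log2 scale (SD 0.00837), while the other arm gave an SD of 2.02. Both comparisons share the SCLC libraries, so they are not independent, and the tables were scaled separately. Calls are the authors' adjusted p under 0.05. No count test was possible, and the number of reads per library is unknown. Intervals are 95% (normal). Lengths came from GENCODE M21 (GRCm38). Calls were recomputed with other thresholds, filters and scalings, in Python 3.11.15 with scipy 1.17.1. Only the test of shifted fold changes and the p-value adjustment were run on simulated fold changes, for genes with a mean of at least 100. The filters on low means and the scaling to equal totals were not simulated. A few genes are not reported here and are left out of the plots by gene; every other channel gene is named; of each partner list, up to 4 genes with the largest change were eligible. The channel genes and lists were chosen with earlier results of these data known.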

Additional observations from a re-analysis of the deposited data

How the results depend on the processing

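No library values were used, so replicates could not be left out, and the spread between libraries is seen only through the authors' standard errors. No paired analysis was possible because the tables carry no column for a single library. Tested alternatives were an adjusted p under 0.01, no filter on low means, a mean of at least 10, fold changes shifted to equal totals or to a median of 0, and a test against an absolute log2 fold change of 1. No channel gene that was called turned its direction under any of them. In SCLC against Normal, between 19 and 23 genes were higher (23 as deposited) and between 4 and 6 lower (6 as deposited). The 19, from the test against an absolute log2 fold change of 1, were 57.6% of channel genes tested, against 11.9% of all genes tested. The lower calls of that test were 12.1% of channel genes tested and 13.7% of all genes tested. Under GSK, 18 genes were higher with equal totals (11 as deposited), or 48.6% of channel genes tested, against 30.8% of all genes tested. In the test against an absolute log2 fold change of 1, 9 were higher (11 as deposited) and 2 lower (4 as deposited). Cacnb2 was among the lower calls lost. The 9 higher were 24.3% of channel genes tested, against 11.1% of all genes tested. The 2 lower were 5.41% of channel genes tested, against 1.98% of all genes tested. That same test left 48 calls over the partner lists and both comparisons (70 and 69 genes tested), against 86 as deposited. Over all genes tested it called 11.9% higher and 13.7% lower in SCLC against Normal, and 11.1% higher and 1.98% lower under GSK. Genes with means of a few counts have wide intervals, and for them no call says nothing about presence.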
